A study of Rattus norvegicus with 54 samples.

Results

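Rat cortical neuron cultures given a virus that carries only a fluorescent reporter were compared with cultures given no virus, 24 h into the standard or the magnesium-free medium. The 12 libraries were chosen by their labels alone, from 54 in the series: 6 given AAV-SYN-GFP and 6 non-transfected. All came from cortex of E18 rat embryos. Each set of 6 held 3 libraries in medium with magnesium, the standard condition, and 3 in medium without magnesium, the condition named epileptic. The 4 groups of 3 shared the culture numbers 1, 2 and 3, given as biological replicates, so every GFP library has an untransfected partner of the same medium and culture. The remaining construct of the series, AAV-SYN-rMBD3-GFP for overexpression of Mbd3, is used only for levels set beside the others. The untransfected cultures lack the virus, the promoter and the reporter at once, so the comparison takes these together. Reads from the GFP sequence itself and the share of cells carrying the virus were not analysed here.

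Adeno-associated virus (AAV) is a small DNA virus used to carry genes into neurons, where its genome mostly stays outside the chromosomes. The SYN promoter, from the synapsin gene, directs expression to neurons, and GFP is the green fluorescent protein of jellyfish, used as a marker with no intended effect on the cell. Removing magnesium frees NMDA-type glutamate receptors from their block and brings cultured neurons to fire in synchronised bursts, a model of epileptiform activity. An AAV with GFP is the usual control for the virus itself, and the untransfected cultures show what that control adds.

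Total counts ran from 19380599 to 31912791 per library, so that 3 counts correspond to 0.094 to 0.155 CPM, the count scaled to library size. These floors cover counting error only. Culture number explained 69.9% of the first principal component of the 12 libraries, medium 10.8% and construct 1.97%, and this component held 38.9% of the variance. The untransfected library with magnesium of culture 3 had a score of 68.9 where the other 3 libraries of its culture had -39.4, -3.74 and -55.0, and it had the highest mitochondrial share, 4.90% of counts against 1.75% to 4.07% in the other 11. The gene that separates the rMBD3 cultures most, ENSRNOG00000028956 on chromosome 7, had 2290 to 7990 CPM in the 6 rMBD3 libraries at 24 h, 161 to 195 in GFP and 169 to 262 in untransfected libraries, so no library given GFP carried the rMBD3 level. The deposited counts name genes by Ensembl identifier and do not pair them with symbols. Neuronal and glial markers therefore could not be read, and the cell type was not checked against them.

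No gene passed the test between GFP and untransfected cultures at 24 h. Of 15734 genes tested with medium and culture number as blocks, 0 (0%) had an adjusted p under 0.05 in edgeR's quasi-likelihood test, and the smallest adjusted p was 0.223. At an unadjusted p under 0.05 there were 964 genes (6.13%), of which 321 (2.04%) were higher and 643 (4.09%) lower in GFP cultures. Where no gene differs, a share near 0.05 of the genes is expected under this threshold. That count of 964 rested in part on single libraries: it was 515 without the GFP library of culture 1 without magnesium, 598 without the GFP library of culture 1 with magnesium, 1499 without the GFP library of culture 2 without magnesium, and 231 without culture 1 altogether. The median log2 fold change over all genes was -0.0153. In these bulk libraries, fewer cells of a type and less RNA of a gene per cell cannot be told apart. DESeq2, with the same blocks, called 127 genes (0.666% of 19074 tested), 45 higher and 82 lower. A fit of all 54 libraries, which shares its estimate of the spread over all 18 groups, called 22 genes (0.128% of 17172), 7 higher and 15 lower, and 15 of these are among the DESeq2 calls, 68.2% of the shorter list and 11.8% of the longer. Leaving out culture 2 left 7 genes past the threshold in edgeR's test. The number of genes called thus differed among these fits, from 0 to 127, and so did the genes they tested. Of the 127 DESeq2 calls, 81 were among the genes tested in edgeR's fit of 12 libraries. All 81 had an unadjusted p under 0.05 there.

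How narrowly these 12 libraries fixed the effect on a gene differed with the level of the gene. The 95% interval of the log2 fold change lay within 1 of 0, a change of less than 2-fold either way, for 10535 of the 15734 genes (67%). This held for 96.3% of the 4644 genes between 5 and 7 log2 CPM, for 88.1% of the 3750 between 3 and 5, for 44.2% of the 2346 between 1 and 3 and for 0.99% of the 3231 below 1. The median standard error (SE) was 0.137 between 5 and 7 log2 CPM and 0.946 below 1. For most genes above 3 log2 CPM a 2-fold difference at 24 h lay outside the interval. For most genes below 1 the interval reached beyond 2-fold. These intervals are those of single genes, without adjustment over all genes tested. They do not give the size of change that would pass after adjustment, and no gene with a fitted change of 2-fold or more passed.

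**Figure D1:**
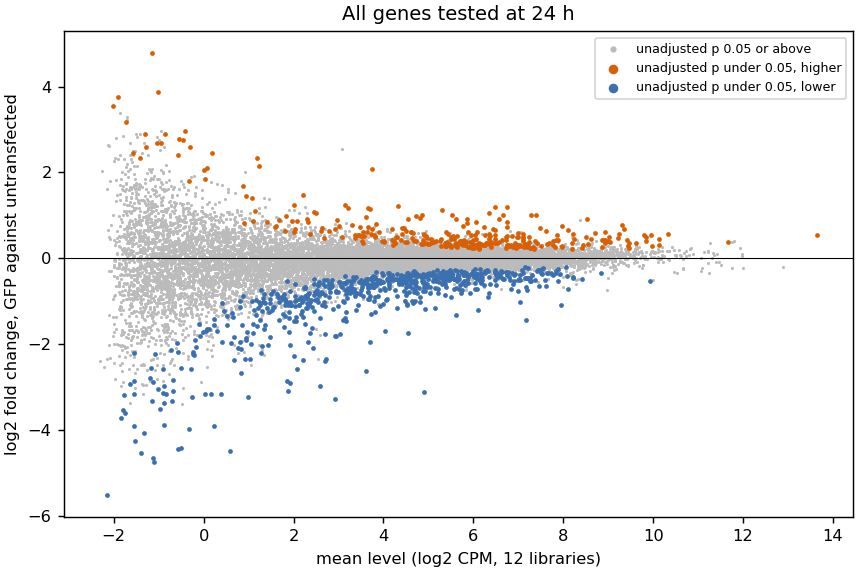
Log2 fold change of GFP against untransfected cultures at 24 h (vertical axis) by mean level in log2 CPM (horizontal axis), 1 point for each of the 15734 genes tested. Coloured points are the 321 higher and 643 lower genes with an unadjusted p under 0.05, none of which passed after adjustment, and the points widen toward low levels.

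The effect was tested in each medium as well. With magnesium, 0 genes (0%) passed the adjusted threshold in edgeR's quasi-likelihood test and 711 (4.52%) had an unadjusted p under 0.05. Without magnesium, 0 genes (0%) passed, 333 (2.12%) had an unadjusted p under 0.05 and the smallest adjusted p was 0.571. The difference of the effect between the media passed for 0 genes (0%), with 198 (1.26%) at an unadjusted p under 0.05. DESeq2 called 246, 206 and 82 genes in these 3 comparisons. Each medium alone sets 3 libraries against 3, and over all genes the effects in the 2 media had the same sign in 60.4%.

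The distance between partners varied among cultures and media. Over the 12177 genes compared pair by pair, 10.1% were at least 2-fold apart between GFP and untransfected libraries of culture 1 with magnesium, 9.36% in culture 2 and 14% in culture 3. Without magnesium the shares were 12%, 2.94% and 4.2%. The balance also turned. In culture 2 with magnesium 845 of these genes were higher and 295 lower in GFP, and in culture 3 with magnesium 596 were higher and 1108 lower. The same measure between the 2 media, with no change of construct, gave 1.8% to 23.5% of genes in untransfected and 5.07% to 11.1% in GFP cultures. The 23.5% was that of untransfected culture 3, whose library with magnesium stood apart on the first principal component. That library is also in the GFP comparison with 14%. Among the pairs without it, distances between media reached 11.1% and those between constructs 12%.

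**Figure D2:**
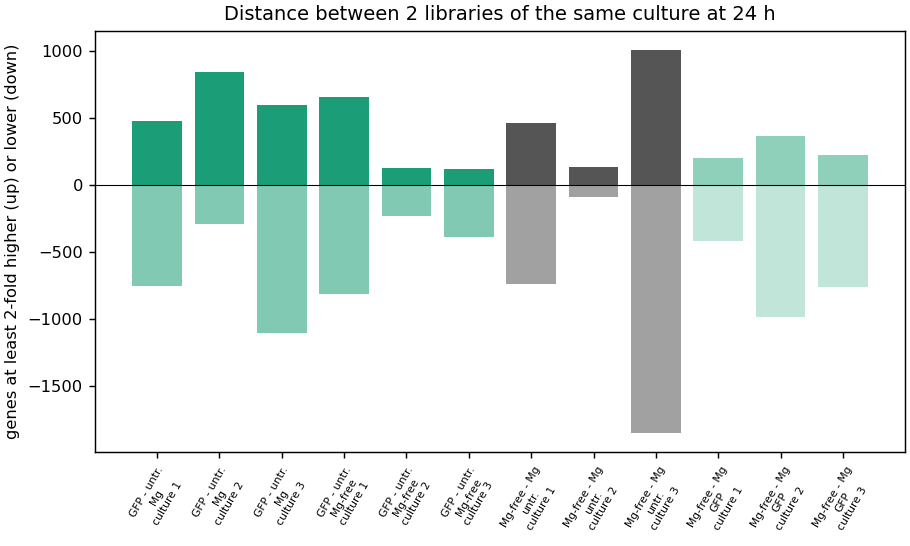
Number of genes at least 2-fold higher (bars above 0) or lower (bars below 0, paler) between 2 libraries of the same culture at 24 h. The first 6 bars compare GFP with untransfected (untr.) libraries in each medium, and the other 6 compare medium without magnesium with medium with magnesium. The GFP bars of cultures 2 and 3 without magnesium are the shortest of the first 6, and the longest bar of all is the medium comparison in untransfected culture 3.

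The 10 genes with the smallest p at 24 h, none past the threshold, were all higher in GFP cultures. Their log2 fold changes were 0.519 to 2.34 with a median of 1.09, and their adjusted p ran from 0.223 to 0.669. All 10 were higher in 6 of 6 pairs, as were 208 (1.32%) of all genes tested, and in 5 of them the GFP and untransfected libraries did not overlap, which 10 genes (0.0636%) showed in this direction. These figures describe how the genes were chosen and carry no test. DESeq2 called all 10, and the fit of 54 libraries called 5. Their levels ran from 1.2 to 6.86 log2 CPM, so they are not confined to the scarce genes where the fitted changes scatter most.

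The first of them was ENSRNOG00000046195, on the minus strand of chromosome 10 from 38133322 to 38179720 (mRatBN7.2), with 3042 bases of exon. At 24 h its untransfected libraries had 8.15, 8.21 and 4.55 CPM with magnesium and 8.81, 8.16 and 7.49 without (cultures 1, 2 and 3). The GFP libraries had 20.1, 16.7 and 11 CPM with magnesium and 23.6, 14.9 and 16.8 without. Every GFP library lay above every untransfected library. The log2 fold change was 1.17 ± 0.172 (SE), 95% interval 0.802 to 1.55, with an adjusted p of 0.223 in edgeR's quasi-likelihood test, and it was 1.18 with and 1.17 without magnesium. This gene passed with DESeq2 (adjusted p = 5.17e-07) and with all 54 libraries (0.0262).

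The mean level of ENSRNOG00000046195 also rose with time and was highest in rMBD3 cultures at each time, neither of which was tested. Over 2, 6 and 24 h its mean in untransfected cultures was 1.62 ± 1.01, 3.49 ± 0.428 and 7.56 ± 1.53 CPM (SD over 6 libraries each). In GFP cultures it was 1.73 ± 0.751, 5.65 ± 2.11 and 17.2 ± 4.34 CPM. In rMBD3 cultures it was 4.28 ± 1.34, 11.7 ± 2.63 and 29.4 ± 7.47 CPM. At 24 h the GFP libraries reached 23.6 CPM and the rMBD3 libraries began at 21.3, so the sets overlapped between these values. The GFP effect was 0.09 on the log2 scale at 2 h and 0.62 at 6 h, and its difference between 24 h and 2 h was 1.07 ± 0.359 (SE), with an adjusted p of 0.504.

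The second was ENSRNOG00000016695, on the minus strand of chromosome 19 from 14154657 to 14182870, with 3166 bases of exon. Its untransfected libraries had 12.8, 16 and 27.4 CPM with magnesium and 11.4, 11.3 and 29.9 without. The GFP libraries had 23.6, 25.1 and 52.3 CPM with magnesium and 31.2, 32.1 and 38.9 without. Culture 3 was the highest for both constructs in both media, and the groups overlapped because untransfected culture 3 exceeded the GFP libraries of cultures 1 and 2 with magnesium. Within each of the 6 pairs GFP was higher. The log2 fold change was 0.97 ± 0.162 (SE), 95% interval 0.62 to 1.32, with an adjusted p of 0.375, and it passed with DESeq2 (2.1e-05) but not with all 54 libraries (0.326). The rMBD3 libraries at 24 h had 62.1 to 86.5 CPM, above every GFP library. At 6 h the GFP effect on this gene was 1.00 ± 0.248, with an adjusted p of 0.217.

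These 10 genes were then read in the libraries of 2 h and 6 h, which had no part in choosing them, although they carry the same culture numbers. At 2 h all 10 were higher in GFP cultures and 5 had an unadjusted p under 0.05 in that direction, against 3.31% of all genes tested. At 6 h all 10 were higher and all 10 had an unadjusted p under 0.05, against 6.26% of all genes. Their log2 fold changes at 6 h were 0.513 to 1.7 with a median of 0.86, and at 2 h they were 0.09 to 1.44 with a median of 0.55. Adjusted over all genes, none passed at either time, with adjusted p-values of 0.135 to 0.382 at 6 h and 0.0952 to 0.956 at 2 h. In the same tests 5 genes (0.0327% of 15299) passed at 2 h, all lower in GFP cultures. That count was 0 without the block, 273 (33 higher), 1 and 0 without culture 1, 2 and 3, and 265 (43 higher) with DESeq2. At 6 h 0 of 15654 genes (0%) passed and 1946 (12.4%) had an unadjusted p under 0.05, while 4 passed without culture 1, 2 without culture 2 and 167 with DESeq2.

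The genes lower in GFP cultures were read in the same way. The first of them stood at rank 12 by p, so none is among those the naming rule gives, and those below were named after their values were seen. The 10 with the smallest p had fitted log2 fold changes of -4.51 to -0.71 and an adjusted p of 0.669. DESeq2 called all 10 of them, and the fit of 54 libraries called 2. Of these 10, 6 were lower in 6 of 6 pairs (1.75% of all genes were), and 3 had groups that did not overlap (0.153% of all genes). At 2 h, 8 of the 10 were tested, of which 6 were lower and 2 had an unadjusted p under 0.05 in that direction, against 6.78% of all genes. At 6 h, 8 of 10 were lower and 1 had an unadjusted p under 0.05, against 6.17% of all genes. Whether the lower genes differ from the higher ones in this was not tested. For the 2 with the largest fitted changes, 5 of the 6 GFP libraries held at most 3 counts, so those values are no measure of a fold.

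**Figure D3:**
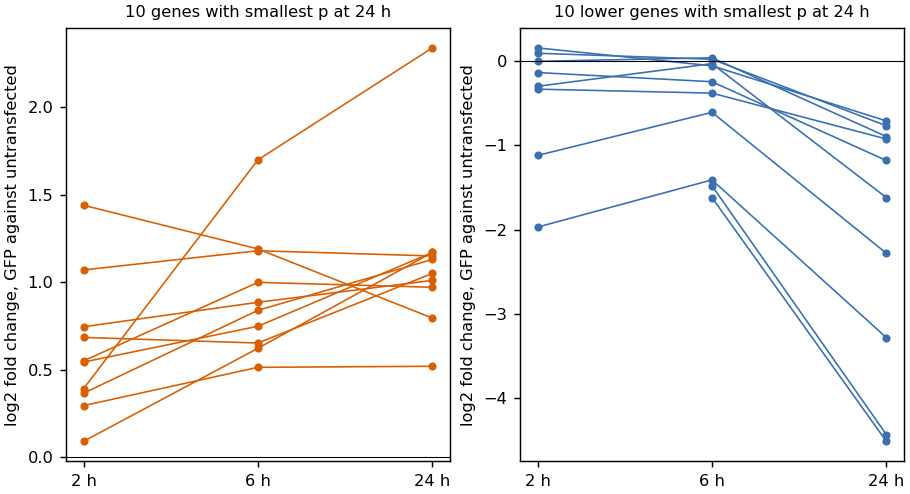
Log2 fold change of GFP against untransfected cultures at 2, 6 and 24 h, 1 line per gene, for the 10 genes with the smallest p at 24 h (left) and the 10 lower genes with the smallest p (right). All 10 lines on the left lie above 0 at every time. Those on the right run from -1.97 to 0.155 at 2 h and from -1.62 to 0.0381 at 6 h. A line on the right that starts at 6 h is a gene not tested at 2 h.

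The lower genes with the smallest p and a mean level of at least 1 log2 CPM were ENSRNOG00000001833 and ENSRNOG00000010248. ENSRNOG00000001833 lies on the plus strand of chromosome 11 from 85258443 to 85272144, with 3944 bases of exon. Its untransfected libraries had 59.2, 35.9 and 41.2 CPM with magnesium and 66.1, 35.9 and 36.1 without. The GFP libraries had 27.2, 30.6 and 24.4 CPM with magnesium and 25.3, 29.9 and 25.2 without. The groups did not overlap, and culture 1 had the highest untransfected values in both media. The log2 fold change was -0.71 ± 0.158 (SE), 95% interval -1.05 to -0.37, with an adjusted p of 0.669, and the fold change was -0.44 without culture 1. This gene passed with DESeq2 (adjusted p = 0.0102) and with all 54 libraries (0.0392). At 24 h rMBD3 libraries had 22.8 to 38.3 CPM, beside 24.4 to 30.6 in GFP. At 6 h the means were 31.8 ± 3.06 CPM in untransfected and 30.9 ± 3.8 in GFP cultures (SD, n = 6 each), and at 2 h the GFP effect was 0.16 on the log2 scale.

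ENSRNOG00000010248 lies on the plus strand of chromosome 2 from 160346758 to 160433135, with 2916 bases of exon. Its untransfected libraries had 54.3, 5.51 and 15.8 CPM with magnesium and 20.4, 3.59 and 9.62 without. The GFP libraries had 26.4, 5.05 and 8.22 CPM with magnesium and 8.94, 2.56 and 3.42 without. Cultures differed more than constructs did, with culture 1 highest and culture 2 lowest in every group, and within each pair GFP was lower. The log2 fold change was -0.90 ± 0.203 (SE), 95% interval -1.34 to -0.46, with an adjusted p of 0.669, and it passed with DESeq2 (0.00789) but not with all 54 libraries (0.305). Over 2, 6 and 24 h its mean in untransfected cultures was 106 ± 34.1, 48.1 ± 39.7 and 18.2 ± 18.8 CPM (SD over 6 libraries each), and in GFP cultures it was 104 ± 8.2, 44.8 ± 13.3 and 9.09 ± 8.84 CPM. The rMBD3 libraries had 1.86 to 17.9 CPM at 24 h.

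**Figure D4:**
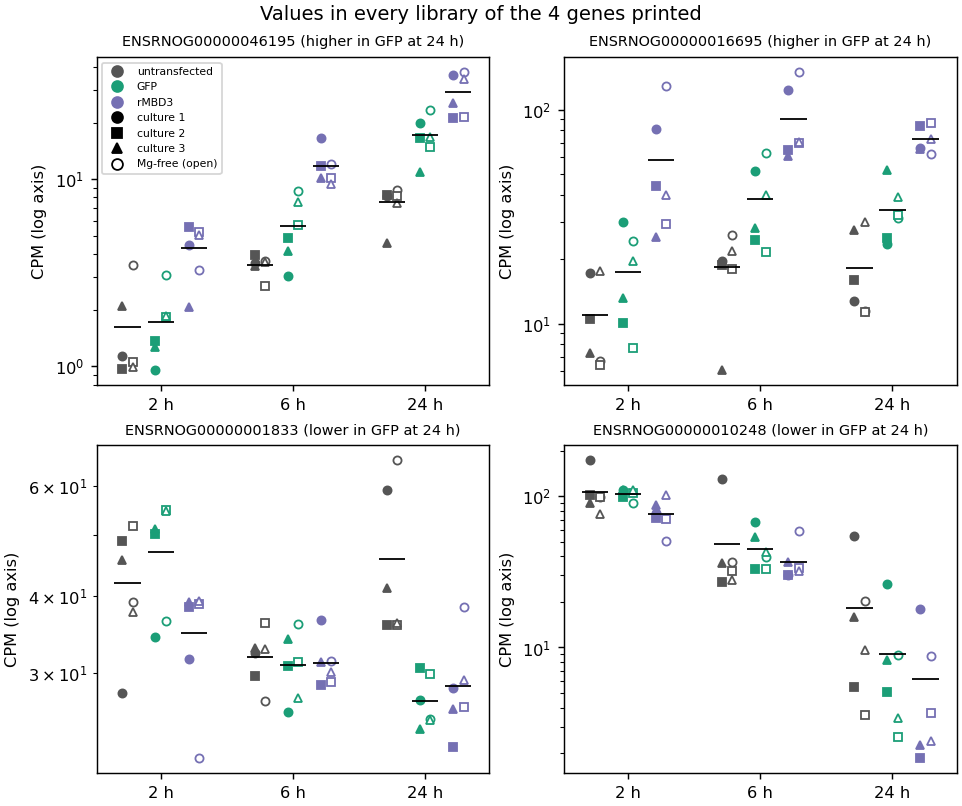
CPM on a log axis of the 4 genes described, in every library at 2, 6 and 24 h, with untransfected in grey, GFP in green and rMBD3 in purple. Circles, squares and triangles are cultures 1, 2 and 3, open symbols are medium without magnesium, and each bar is the mean of 6 libraries. For both higher genes (top) GFP lies between untransfected and rMBD3 means at each time, and for ENSRNOG00000001833 (bottom left) GFP and untransfected libraries part at 24 h only, with rMBD3 overlapping both.

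Whether the GFP effect at 24 h differed from that at the earlier times was tested directly over 36 libraries. Against 2 h, 0 of 16842 genes (0%) passed in edgeR's quasi-likelihood test, 1314 (7.8%) had an unadjusted p under 0.05 and DESeq2 called 114. Against 6 h, 1 gene (0.00594%) passed, and 1488 (8.84%) had an unadjusted p under 0.05. That gene was ENSRNOG00000003251, on the plus strand of chromosome 13 from 55389406 to 55398419. At 6 h it had 12.6, 7.47 and 11 CPM in untransfected cultures with magnesium and 5.58, 8.33 and 6.42 without (cultures 1, 2 and 3). GFP cultures at 6 h had 21.5, 6.74 and 15.6 CPM with and 12.3, 8.08 and 12.7 without magnesium. At 24 h untransfected cultures had 7.68, 2.85 and 4.09 CPM with and 10.2, 2.51 and 5.02 without magnesium, and GFP cultures had 8.74, 1.9 and 2.54 with and 1.28, 0.814 and 0.639 without. The GFP effect was 0.51 ± 0.217 at 6 h and -1.37 ± 0.432 at 24 h, and the difference was -1.96 ± 0.322 on the log2 scale (SE; adjusted p = 0.0472). The call was lost in 6 of 8 alternatives, among them the fit without the block (adjusted p = 0.971) and leaving out any 1 culture (0.0758 to 0.985). At 24 h the effect was -2.51 without and -0.34 with magnesium, and the lowest of these values were those of the 3 GFP libraries without magnesium. These lay below every untransfected library, as did the GFP library of culture 2 with magnesium (1.9 CPM). The rMBD3 libraries of both media had 0.179 to 5.49 CPM at 24 h. The difference of the effect between media was -2.17 ± 0.586 (SE) for this gene. It did not pass in edgeR's quasi-likelihood test (unadjusted p = 0.00328, adjusted p = 1). The difference between 24 h and 2 h was -1.86 ± 0.319 (SE) and did not pass in the same kind of test (adjusted p = 0.0857).

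Gene identifiers without symbols still carry position and length, and the genes were grouped by these after results had been seen, as a description. The 199 genes tested that span over 500 kb had a median log2 fold change of -0.32, and 14.1% of them had an unadjusted p under 0.05 and were lower in GFP cultures, against 4.09% of all genes, while 1.51% were higher, against 2.04%. The 1993 genes of 100 to 500 kb had a median of -0.12, the 8916 of 10 to 100 kb -0.0049 and the 4626 under 10 kb 0.015. Long genes in brain include many adhesion molecules, ion channels and receptors of the synapse, but which of these the 199 are was not read here. The median of the longest genes was -0.47, 0.18 and -0.62 in cultures 1, 2 and 3 with magnesium and -0.49, 0.00022 and -0.27 without, so it was below 0 in 4 of 6 pairs and in neither pair of culture 2. At 2 h and 6 h it was 0.062 and 0.1.

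Mitochondrial share, a measure that often moves with the state of the cells, was 3.06% ± 1.26 in untransfected and 2.58% ± 0.704 in GFP libraries at 24 h (SD, n = 6 each), higher in GFP in 3 of 6 pairs (exact sign-flip permutation test, two-sided, p = 0.406, Benjamini-Hochberg 0.487 over 6 measures). The 23 mitochondrial genes tested had pair medians of 0.26, 0.45 and -0.99 with magnesium and -0.54, 0.34 and -0.56 without. These had the same sign as the medians of the longest genes in every pair but culture 1 with magnesium. In culture 2 without magnesium the median of the longest genes was 0.00022, so its sign says little. The part of mitochondrial share in the difference of the long genes was not tested. The number of genes detected was lower in GFP in 6 of 6 pairs, by 463 on average (SD 640, exact permutation p = 0.0312, which is the smallest that 6 pairs allow, Benjamini-Hochberg 0.187). Culture 3 without magnesium carried much of this, with 1725 fewer genes in GFP, and the other 5 pairs had 210 fewer on average. With all libraries thinned to equal depth it was lower in 5 of 6 pairs, by 400 on average (p = 0.0938, exact), and by 162 without that pair, which was left out after seeing the data.

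**Figure D5:**
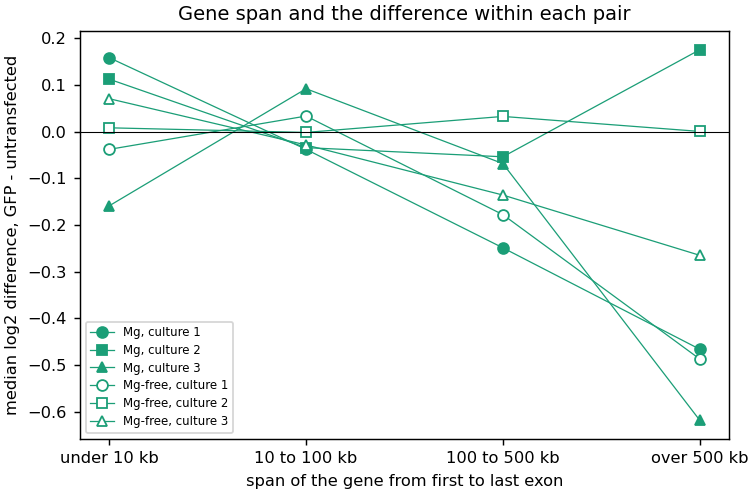
Median log2 difference between GFP and untransfected libraries (vertical axis) of genes grouped by their span (horizontal axis), 1 line per pair at 24 h. Circles, squares and triangles are cultures 1, 2 and 3, and open symbols are medium without magnesium. Over 500 kb, 4 pairs lie between -0.62 and -0.27, and the pairs of culture 2 lie at 0.00022 and 0.18.

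The longer lists at an unadjusted p were described by level, span and sign at the other times. Together they hold 6.13% of the genes tested, where a share near 0.05 is expected if no gene differs. Many of their genes may therefore not differ between the constructs. The 321 genes higher at an unadjusted p under 0.05 had a median level of 5.73 log2 CPM and a median span of 15857 bases, and the 643 lower genes 3.83 log2 CPM and 45453 bases, beside 4.35 and 21843 for all genes tested. At 6 h, 59.4% of the higher and 73.3% of the lower genes kept their sign, against 50.9% of all genes, and at 2 h 49.3% and 67% did, against 50.4%. The 10 genes with the smallest p, of which 10 of 10 kept their sign at both times, thus stand beside a longer list of higher genes whose share at 2 h was that of all genes.

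The genes that change most with time were also followed, because cultures can differ in how far they have moved along the time course. The 500 genes with the largest rise from 2 h to 24 h in rMBD3 cultures, which share no library with the comparison, had a median of 0.08, and 13.2% were higher at an unadjusted p under 0.05, against 2.04% of all genes, while 5.2% were lower, against 4.09%. The 500 with the largest fall had a median of -0.29, and 10.6% were lower, against 4.09% of all genes. The rMBD3 cultures carry a virus too, so genes that a virus moves over time can enter these sets. Virus and position along the time course cannot be told apart in these shares. ENSRNOG00000046195 is in the rising and ENSRNOG00000010248 in the falling set. Median GFP effects at 2 h and 6 h were -0.29 and -0.16 in the rising set. In the falling set they were 0.12 and 0.23. At 24 h, pair medians of the falling set were -0.20, 0.86 and -0.78 in cultures 1, 2 and 3 with magnesium and -0.55, -0.60 and -0.08 without. The mean log2 level of the rising set minus that of the falling set was higher in GFP in 5 of 6 pairs. This difference was higher by 0.362 on average (SD 0.708, exact sign-flip permutation test, p = 0.219, Benjamini-Hochberg 0.438 over 6 measures). Without the untransfected library of culture 3 with magnesium, the median of the falling set was -0.05 and that of the rising set 0.03. The median of the falling set turned to 0.06, and that of the rising set to -0.02, in a fit without 2 untransfected libraries. These were the untransfected libraries with the highest mitochondrial shares, culture 3 with magnesium and culture 1 without. That choice was made after seeing the data and removes libraries of 1 construct only. Without them 0 genes passed in edgeR's test and 1900 had an unadjusted p under 0.05, of which 1120 were higher, where with them 321 of 964 were.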

How the data were processed

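RNA was sequenced from cortical neuron cultures, with libraries from a stranded mRNA kit per the labels' protocols. Counts per gene were made by the authors with featureCounts 2.0.0 on read pairs, with strand setting 2, mapping quality of at least 3 and Ensembl release 105 of mRatBN7.2, per the file headers. The labels' protocols name rn6, so header and labels name different builds, and coordinates here are those of the count table. A deposited table of log2 values was not used. The symbol table at hand (GRCr8, 47357 genes) paired 0 of the 30560 identifiers, so gene lists, cell type markers, Mbd3 by name and sequences are not reported here.

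The low-count filter was filterByExpr (counts of 10, totals of 15) and scaling was by TMM. edgeR 4.0.16 in R 4.3.3 (glmQLFit, robust, and glmQLFTest) fitted construct, medium and culture number to the 12 libraries. The effect within each medium and its difference between media came from a model of the 4 groups with culture as block, and differences between times from 36 libraries with a block for each time and culture. P-values were adjusted by Benjamini-Hochberg over all genes tested (threshold 0.05). SE was derived from the fold change and its F statistic. Differences within pairs used log2 CPM with a prior count of 2. Statistical scripts were tested on simulated data.

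Culture numbers pair the samples because the labels give them as biological replicates shared by all groups. Deviations from the group means correlated by 0.272 on average (-0.213 to 0.613 over 18 pairs) for same-numbered libraries. No 2 libraries of a group were copies (chi-square per gene 33.7 to 358 over 12 pairs).

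The rule for named genes was those past the threshold or, with fewer than 5, the 10 with the smallest p, of which 2 are printed because no symbols are paired; 2 lower genes are printed outside it. The comparison and lists were chosen with earlier results of these data known. Alternatives were no block, relative log expression factors, DESeq2 1.42.0 on genes with totals from 10 up, no filter, leaving out each culture and each library, and all 54 libraries. A block per time in that fit, and leaving out 2 untransfected libraries, were chosen after seeing the data.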

Additional observations from a re-analysis of the deposited data

Results flagged for a closer look

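ENSRNOG00000003251 had a GFP effect that differed between 24 h and 6 h by -1.96 on the log2 scale (edgeR's quasi-likelihood test of the difference, adjusted p = 0.0472). It passed with DESeq2 (adjusted p = 4.98e-06) and with no filter on low counts (0.024). It did not pass without the block (0.971), with 1 block per culture shared by all times (0.486), with relative log expression factors (0.0524) or without culture 1, 2 or 3 (0.528, 0.0758 and 0.985). The difference was -2.43 to -1.69 over these 8 alternatives.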

How the results depend on the processing

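The count of 0 genes between GFP and untransfected cultures at 24 h was 127 with DESeq2, 22 with all 54 libraries and a replicate block, and 73 (12 higher, 61 lower) with all 54 and a block for each time and culture. It ranged from 0 to 7 over leaving out a culture or a library, with 7 without culture 2, and was 0 with no replicate block (543 at an unadjusted p under 0.05, against 964 with it), with relative log expression factors and with no filter. The pairing by culture number changed the counts of 2 other comparisons: without the block the 2 h comparison fell from 5 genes to 0 and the difference between 24 h and 6 h from 1 gene to 0. The latter was also 0 with a block shared by all times, with relative log expression factors and without any 1 culture (0 to 0). DESeq2 gave 246 genes with magnesium, 206 without, 82 for the difference between media, 114 for 24 h against 2 h and 117 for 24 h against 6 h. The cause of these differences between models, which also differ in the genes tested, was not tested. No gene named from the 24 h comparison changed direction in its 22 alternatives. The median of genes over 500 kb was -0.556 to -0.207 over the alternatives for which it was computed, and that of 23 mitochondrial genes, -0.225, was 0.122 without culture 3. With 6 libraries a side, 32 of 3231 genes below 1 log2 CPM had an interval within 2-fold.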
